A study of Mus musculus with 15 samples.

Results

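The cardiac and the hepatic response to allografting at post-operative day (POD) 5 were set against each other gene by gene in 12 of the 15 arrays of the series. A gene entered when its probe was well above background on the 3 arrays of at least one group in the heart and one in the liver, so that a change could be seen in both. This held for 22788 of the 41174 probes on the array (55.3%) and for 12852 of the 18217 genes with a RefSeq name. Another 4867 probes passed in the heart alone and 927 in the liver alone. The quantity reported is the organ difference, which is the change in cardiac allografts over cardiac controls minus the change in hepatic allografts over hepatic controls, on a log2 scale where 1 unit is a 2-fold difference.

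Cardiac allografts (3 arrays, POD5) were C57BL/10 (B10, H-2b) hearts placed heterotopically in the abdomen of sex-matched CBA (H-2k) recipients. Hepatic allografts (3 arrays, POD5) were B10.BR (BR, H-2k) livers transplanted orthotopically, with a cuff technique, into B10.D2 (D2, H-2d) recipients. All mice were male, and surgery was done under isoflurane. The 3 cardiac and 3 hepatic controls are labelled as normal tissue, with no strain given, while the results of the study call them isografts, that is, grafts between genetically identical animals. Organ, strain pair and kind of surgery changed together, so their parts in any organ difference cannot be told apart.

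In an acutely rejected graft, T cells that recognise foreign MHC molecules enter the tissue and release interferon-gamma, a cytokine that switches on guanylate binding proteins, immunity-related GTPases, chemokines and the machinery that loads peptides on MHC class I. Cytotoxic cells kill graft cells with granzymes and perforin, while monocytes and macrophages accumulate. The mouse liver is known for accepting allografts across MHC barriers in many strain pairs, in contrast to the heart.

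The 12 arrays differed in brightness. The 75th percentile of the processed signal was 394 to 710 on cardiac allograft arrays, 1021 to 1247 on cardiac controls, 338 to 478 on hepatic allografts and 92.1 to 226 on hepatic controls, and 52.5% to 70.5% of probes were well above background. The 3 cardiac controls shared a slide that held no other array, and the 3 cardiac allografts shared another with 1 hepatic allograft, so slide and cardiac group cannot be told apart. Of 22 cardiomyocyte markers, 22 were above background in both cardiac groups, 11 in hepatic allografts and 10 in hepatic controls. Of 24 hepatocyte markers, 24 were above background in both hepatic groups, 14 in control hearts and 10 in cardiac allografts. The summed log2 level of the hepatocyte markers was 11.67 to 13.31 in control hearts and 10.6 to 10.97 in cardiac allografts, against 21.18 to 21.41 over all hepatic arrays.

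With limma and Benjamini-Hochberg adjustment at 0.05, the organ difference was called for 5178 probes, or 22.7%. Counted by gene, with each gene read from its brightest probe, 1462 genes (11.4%) had an organ difference above 0 and 1654 (12.9%) one below 0. Allografts were higher than controls for 2688 genes (20.9%) in the heart and 1726 (13.4%) in the liver. They were lower for 2653 genes (20.6%) in the heart and 863 (6.71%) in the liver. All 3 allografts lay beyond all 3 controls for 64.1% of genes in the heart and 38.5% in the liver, so groups that did not overlap were common. Of the 3116 genes with a called organ difference, 1959 were called in the heart alone, 563 in the liver alone, 171 rose in both organs to different extents and 38 fell in both, while 198 were called in neither organ by itself. The median organ difference over all genes was -0.07. Scaling each array to its 75th percentile instead of quantile normalization moved the split of called probes from 2624 above and 2554 below 0 to 3409 and 2209, and the median over all probes from -0.02 to 0.14. With the slide as a random block, 2975 probes were called.

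**Figure D1:**
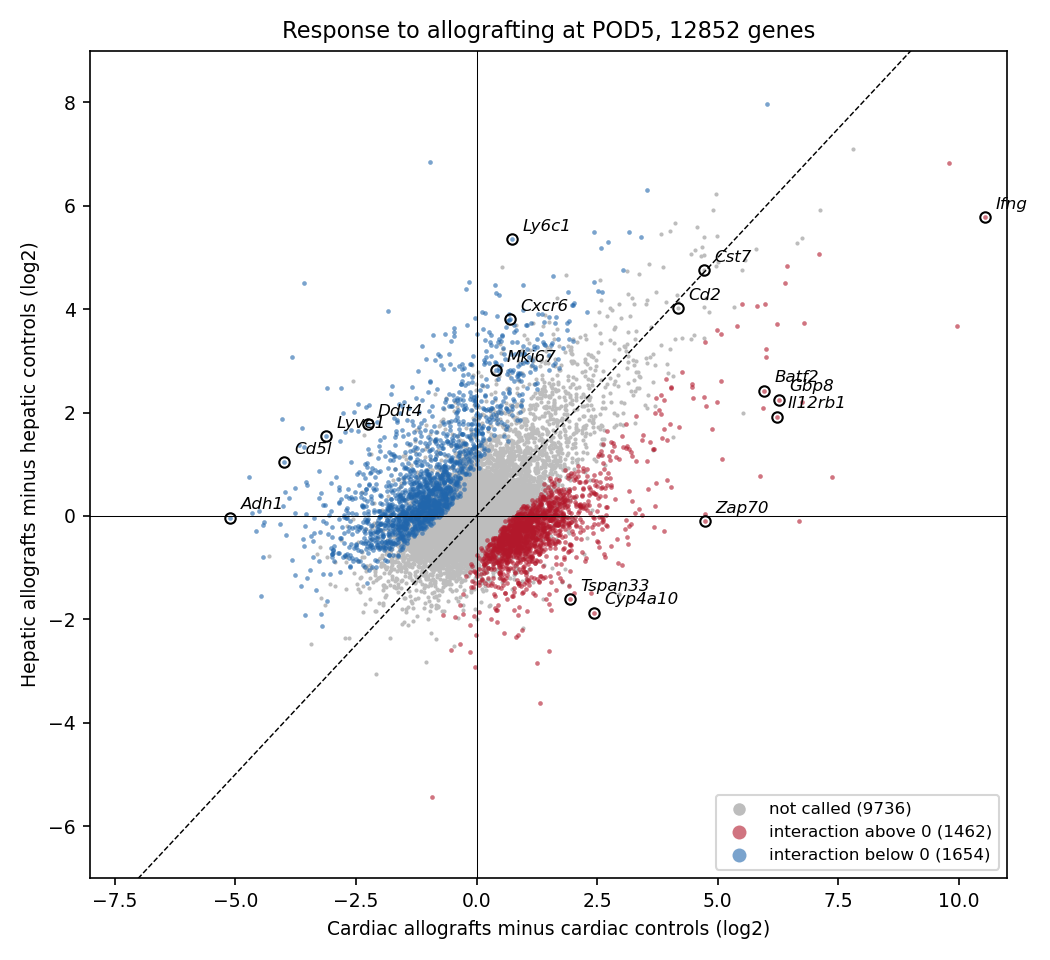
Change in cardiac allografts over cardiac controls (x axis, log2) against change in hepatic allografts over hepatic controls (y axis, log2) for 12852 genes at POD5, each the difference of means of 3 arrays. Red genes have a called organ difference above 0 (1462) and blue genes one below 0 (1654), and the dashed line marks equal change, on which Cst7 lies while Ifng lies far to its right at 10.54 in the heart and 5.79 in the liver.

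Interferon-gamma inducible genes rose in both organs and rose more in the heart. Of 29 tested members of a list of 32, 29 were higher in cardiac allografts and 28 in hepatic allografts, with median changes of 4.75 and 3.23 against -0.01 and -0.03 over all genes. The organ difference was called above 0 for 19 of the 29 and below 0 for 0, and its median was 1.55. Leaving out 1 array at a time left 15 to 20 calls, the slide block left 14, and the other scalings and background correction left 16 to 20.

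Ifng itself, which encodes interferon-gamma, measured 14.001, 15.41 and 15.13 in cardiac allografts and 4.45, 4.10 and 4.38 in cardiac controls. Its hepatic levels were 9.69, 9.95 and 10.80 in allografts and 3.56, 4.73 and 4.80 in controls, of which 2 were well above background. The controls of both organs were alike and both allograft groups lay far above them, the hearts highest. The rise was 10.54 in the heart and 5.79 in the liver, an organ difference of 4.75 ± 0.60 (SE; adjusted p = 0.000845, limma).

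Il12rb1, a subunit of the interleukin-12 receptor through which T cells are driven to make interferon-gamma, measured 11.11, 11.12 and 11.42 in cardiac allografts and 5.33, 4.61 and 5.0 in their controls. Hepatic allografts measured 8.65, 8.57 and 9.02 and hepatic controls 6.65, 7.14 and 6.69. The groups were apart in both organs, with control livers above control hearts and allografted livers below allografted hearts. The organ difference was 4.32 ± 0.33 (SE; limma adjusted p = 5.04e-05).

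Among the targets, Batf2, an interferon-induced transcription factor, measured 13.52, 13.75 and 13.47 in cardiac allografts against 7.78, 7.51 and 7.55 in controls, and 9.90, 9.63 and 10.24 in hepatic allografts against 7.58, 7.49 and 7.44. Control levels of the organs were close, and the organ difference of 3.54 ± 0.27 (SE; limma adjusted p = 5.13e-05) came with a rise in each. Gbp8, a guanylate binding protein, rose by 6.26 in the heart and by 2.25 in the liver, where its controls (9.59 to 9.81) already exceeded those of the heart (6.42 to 6.89). Gbp2b was not well above background on any control heart. Its fitted organ difference was 6.27 (limma adjusted p = 0.000355), and by its bound it was at least 5.45 on the log2 scale, a value not tested. Other members changed by like amounts. Gbp3 rose by 3.10 and 3.19 and Gbp9, on its brightest probe, by 3.24 and 3.01, with 95% intervals of the organ difference inside -1 to 1. The other of the 2 tested Gbp9 probes went with the heart, with a called organ difference of 3.4.

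**Figure D2:**
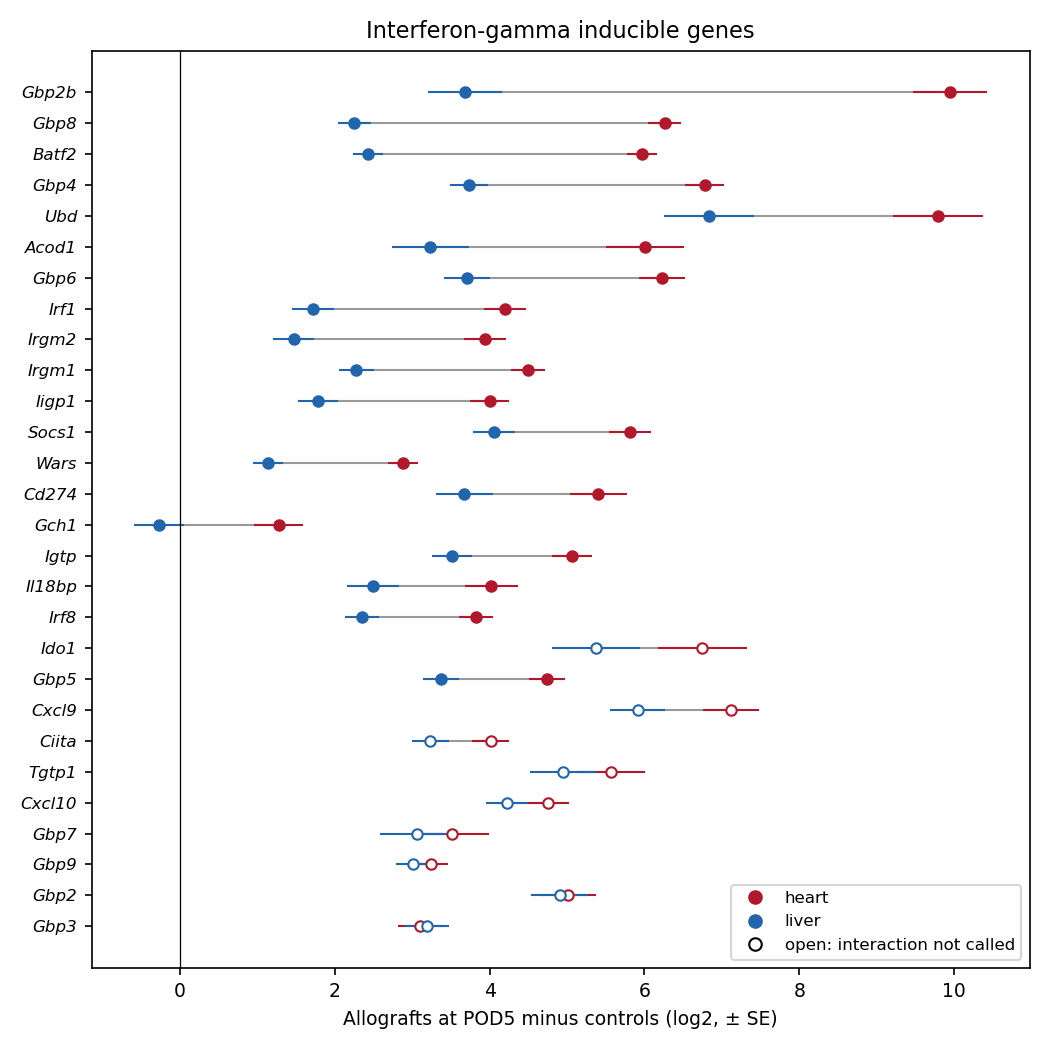
Change at POD5 (x axis, log2, allografts minus controls, ± SE from the limma fit) of 28 of the 29 tested interferon-gamma inducible genes in heart (red) and liver (blue), ordered by organ difference. Filled points mark the 19 genes with a called organ difference, and the heart point lies to the right for all plotted genes but Gbp3.

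Promoter sequences show what letters these genes carry upstream. RefSeq promoters (GRCm38.p6, from 250 bases before to 50 after the start, a C57BL/6J reference rather than the strains used) held an entry for 19 of the 29 genes. Gbp8 and Batf2 had none. Printed are the called, measured genes with the largest organ difference among those with a single entry, Ubd (2.96), a ubiquitin-like modifier, at chr17:37193642-37193941 and Acod1 (2.77), the enzyme that makes itaconate, at chr14:103046762-103047061, and for contrast the uncalled ones with the smallest, Gbp2 (0.11) at chr3:142620413-142620712 and Gbp7 (0.45) at chr3:142530086-142530385, all on the + strand. Capitals mark matches on either strand to the interferon regulatory factor element AANNGAAA or the gamma activated site TTCNNNGAA.
Ubd: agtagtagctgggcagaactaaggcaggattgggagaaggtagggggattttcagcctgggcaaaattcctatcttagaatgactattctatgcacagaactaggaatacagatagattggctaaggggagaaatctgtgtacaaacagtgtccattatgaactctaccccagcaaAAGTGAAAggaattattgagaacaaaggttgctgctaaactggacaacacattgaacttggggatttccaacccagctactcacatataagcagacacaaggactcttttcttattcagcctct
Acod1: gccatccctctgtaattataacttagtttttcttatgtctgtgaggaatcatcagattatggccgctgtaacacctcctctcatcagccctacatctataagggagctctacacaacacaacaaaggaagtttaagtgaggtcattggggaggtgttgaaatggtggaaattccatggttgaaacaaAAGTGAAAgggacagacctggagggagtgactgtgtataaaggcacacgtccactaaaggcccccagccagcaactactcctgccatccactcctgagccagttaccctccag
Gbp2: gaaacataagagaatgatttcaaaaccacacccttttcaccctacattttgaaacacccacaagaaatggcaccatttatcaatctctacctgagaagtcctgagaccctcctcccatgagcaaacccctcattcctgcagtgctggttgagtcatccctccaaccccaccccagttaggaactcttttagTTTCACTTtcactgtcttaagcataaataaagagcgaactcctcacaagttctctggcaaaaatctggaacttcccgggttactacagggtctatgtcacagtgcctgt
Gbp7: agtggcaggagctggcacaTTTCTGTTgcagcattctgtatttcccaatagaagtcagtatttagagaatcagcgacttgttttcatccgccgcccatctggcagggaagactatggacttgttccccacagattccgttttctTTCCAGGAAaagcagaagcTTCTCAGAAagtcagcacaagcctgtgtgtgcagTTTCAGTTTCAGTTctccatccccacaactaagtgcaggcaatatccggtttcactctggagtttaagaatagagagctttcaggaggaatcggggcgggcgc

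Ubd, Acod1 and Gbp2 each held 1 AANNGAAA match, at positions -74, -63 and -59 from the start, and Gbp7 held 3, with 2 gamma activated site matches. Over the genes with an entry, AANNGAAA was present for 9 of 13 with a called organ difference and 5 of 6 without, and TTCNNNGAA for 5 of 13 and 2 of 6. Among all 32851 promoters, 23.9% held the first and 8.3% the second, and the patterns of Ubd and Acod1 did not set them apart from Gbp2. The call of Ubd was lost without cardiac allograft 2 or hepatic allograft 2, and both were lost with the slide block (adjusted p = 0.0827 and 0.0587, limma).

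MHC class I presentation followed the same order. All 17 tested genes rose in cardiac allografts and 15 of 17 in hepatic allografts, with medians of 2.61 and 1.42, and the organ difference was called above 0 for 8 and below 0 for 0. Nlrc5, the transactivator of class I genes, measured 7.93, 7.28 and 8.02 in cardiac allografts and 4.43, 4.33 and 4.38 in controls, against 6.31, 6.63 and 5.44 in hepatic allografts and 6.12, 5.51 and 6.32 in controls. It rose only in the heart by these calls, where it passed the level of the livers. Its organ difference was 3.22 ± 0.45 (SE; limma adjusted p = 0.00129). Tapbpl, which edits the peptides loaded on class I, rose by 3.56 in the heart and changed by 0.53 in the liver (adjusted p = 0.156, limma). Tap1, a subunit of the peptide transporter, rose in both, by 4.75 and 2.13.

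The class I heavy chains H2-K1 and H2-D1 rose by 2.20 and 2.25 in the heart and 1.48 and 1.55 in the liver, with no called organ difference, though that of H2-K1 was called, at 1.13, with 75th percentile scaling. H2-Q8, a nonclassical class I gene, had the largest called organ difference above 0, 6.77 ± 0.45 (SE; limma adjusted p = 2.28e-05). It measured 11.33, 11.96 and 11.66 in cardiac allografts and 4.91, 5.12 and 4.90 in controls, but 10.22, 10.10 and 10.61 in hepatic allografts and 10.996, 9.62 and 10.60 in controls. Only the control hearts were low. H2-M10.2 differed by 5.09 and lost its call without cardiac allograft 2, cardiac control 1 or hepatic allograft 3. Donor and recipient carried different H-2 haplotypes in each organ, and how well these probes match each haplotype was not tested. Class II presentation rose in both organs, in 8 of 9 genes in the heart and 9 of 9 in the liver, with medians of 2.99 and 3.24, and 1 organ difference was called, H2-Aa at -1.65, which was lost with the slide block (adjusted p = 0.12, limma) and without any of the 3 cardiac allografts, any of the 3 cardiac controls, or hepatic allograft 1 or 2. Of 28 type I interferon antiviral genes, 24 rose in the heart and 19 in the liver, against 20.9% and 13.4% of all genes. The organ difference was called above 0 for 6 (21.4%, against 11.4% of all genes) and below 0 for 0. The count above 0 was 3 without cardiac control 2 and 4 with the slide block, so it was not firmly above the share of all genes. Stat2, which carries the type I interferon signal to the nucleus, rose by 2.68 in the heart against 0.02 in the liver (limma adjusted p of the organ difference 0.00129).

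Cytotoxic effector genes rose steeply in both organs. Of 13 cytotoxic effector genes, 11 rose in each organ, the same 11 in both, with medians of 4.12 and 4.76, and a single organ difference was called, Srgn at -1.70, which was lost with the slide block (adjusted p = 0.0759, limma), with 75th percentile scaling, and without cardiac allograft 1 or 3, cardiac control 1 or 3, or hepatic allograft 1. Cst7, which encodes cystatin F of cytotoxic granules, measured 10.06, 10.95 and 10.54 in cardiac allografts and 5.81, 5.69 and 5.90 in controls, and 8.53, 8.90 and 9.19 in hepatic allografts and 3.80, 4.61 and 3.93 in controls, of which 1 was well above background. Hearts were higher throughout and the rises matched, 4.71 and 4.76, with a 95% interval of the organ difference within -1 to 1. Gzmb, which encodes granzyme B, rose by 7.79 and 7.10. Fasl, also on the list, had an organ difference of 0.04 on its brightest probe, where control livers were not well above background. Its other tested probe was called above 0, at 2.83. Cd2, a T cell adhesion receptor, rose by 4.17 and 4.02.

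T cell markers as a set rose by a median of 4.17 in the heart and 4.08 in the liver, and single genes went both ways: 6 of 19 had a called organ difference above 0 and 4 one below 0. Zap70, the kinase of the T cell receptor, measured 9.90, 9.87 and 10.44 in cardiac allografts and 5.34, 5.24 and 5.44 in controls. In the liver it measured 9.72, 10.10 and 10.05 in allografts and 9.95, 10.27 and 9.96 in controls. The liver arrays of both groups were as high as the allografted hearts, and the organ difference was 4.83 ± 0.29 (SE; limma adjusted p = 1.79e-05). Cd6 had an organ difference of 2.77 and Cd3e one of 1.95, also with control livers (7.81 to 8.73 for Cd6, 7.07 to 7.59 for Cd3e) above control hearts (6.32 to 6.97 and 4.78 to 5.44). Thy1 lay on the other side at -2.08. Cd8a, the CD8 coreceptor chain, was not well above background in control livers, and with those at their bound its organ difference was -0.68. In bulk tissue, fewer cells of a type and less RNA per cell cannot be told apart.

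Among cytokines and helper lineage genes, 7 of 21 had an organ difference above 0 and 1 one below 0. Tbx21, the T helper 1 regulator, rose by 4.72 in the heart and 4.04 in the liver with no called organ difference. Il18r1, a chain of the interleukin-18 receptor, was the 1 below 0, at -3.23, rising by 3.90 in the liver against 0.67 in the heart, where the change was not called (limma adjusted p = 0.335). Of 15 costimulation, checkpoint and regulatory T cell genes, 12 rose in the heart and 13 in the liver. The organ difference was called above 0 for 3 (20%, against 11.4% of all genes) and below 0 for 2 (13.3%, against 12.9%). The count above 0 was 1 without cardiac allograft 2 or cardiac control 2, or with the slide block. The inhibitory receptors Lag3 (-0.27) and Pdcd1 (-1.27) had none called. Tnfrsf4, the costimulatory receptor OX40, had an organ difference of 3.25 and Havcr2, the checkpoint receptor TIM-3, one of -2.79. Havcr2 measured 10.95, 9.93 and 10.88 in cardiac allografts and 9.71, 9.51 and 10.22 in controls, groups that overlapped, against 8.69, 8.60 and 9.07 in hepatic allografts and 4.61, 5.58 and 5.50 in controls, of which 2 were well above background.

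**Figure D3:**
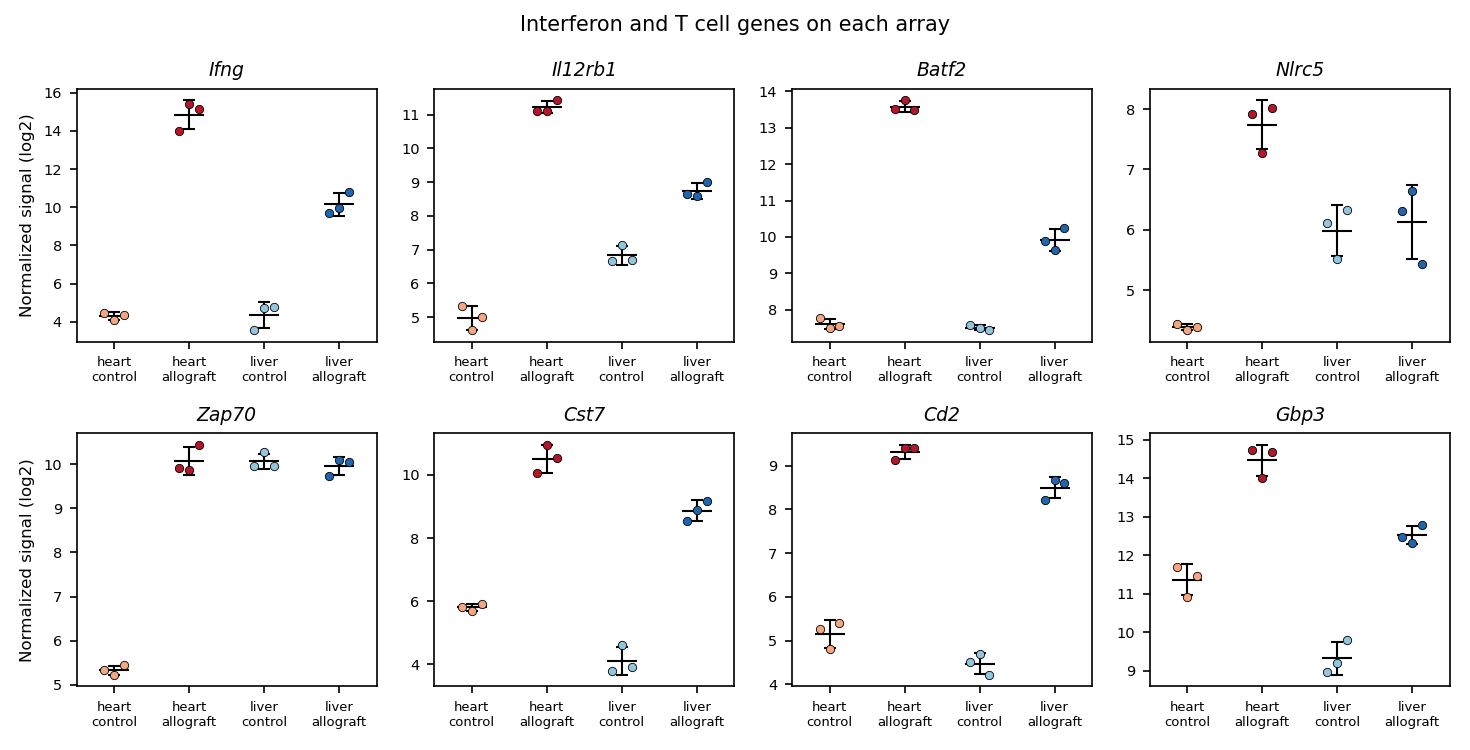
Normalized signal (y axis, log2, own scale in each panel) of 8 genes on each of the 12 arrays, with the mean and SD of each group of 3. Ifng, Il12rb1, Batf2, Nlrc5 and Zap70 rose more in the heart, while Cst7, Cd2 and Gbp3 rose by like amounts in both organs, and control livers start high for Zap70, Il12rb1 and Nlrc5.

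Of 28 chemokines and their receptors, 4 had an organ difference above 0 (14.3%, against 11.4% of all genes) and 6 one below 0 (21.4%, against 12.9%), shares near those of all genes. Without 1 array the counts went down to 2 above 0 (without cardiac allograft 3, cardiac control 2 or hepatic allograft 1) and 3 below 0 (without cardiac control 1 or 3). Cxcl1, a neutrophil attractant, fell by 2.35 in the liver (hepatic allografts 9.34, 8.99 and 8.62, controls 10.81, 10.59 and 12.60) while the cardiac groups overlapped, an organ difference of 3.18 ± 0.79 (SE; limma adjusted p = 0.0157). Receptors of monocytes and memory T cells lay on the other side. Cxcr6 measured 10.06, 10.44 and 10.60 in hepatic allografts and 5.96, 7.18 and 6.54 in controls, but 11.63, 10.65 and 11.36 in cardiac allografts and 10.80, 9.90 and 10.86 in controls, so that the control hearts were already near the allograft level. Its organ difference was -3.12 ± 0.52 (SE; limma adjusted p = 0.00294). Ccr2, which brings monocytes into tissue, rose by 3.13 in the liver against 0.79 in the heart.

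Resident macrophage markers fell mainly in the heart, where 6 fell and 1 rose, against 2 and 1 in the liver. Of 12 markers of resident macrophages and Kupffer cells, the macrophages of the liver, 6 had a called organ difference, all below 0, a count that stayed at 6 without any single array, and the medians were -2.03 in the heart and 0.46 in the liver. Lyve1, a hyaluronan receptor of resident macrophages and of lymphatic and sinusoidal endothelium, measured 7.55, 7.94 and 7.16 in cardiac allografts and 10.59, 10.17 and 11.22 in controls. Hepatic allografts measured 10.05, 10.20 and 9.80 and controls 7.50, 8.98 and 8.94. The groups were apart in both organs and moved in opposite directions, by -3.12 and 1.55, an organ difference of -4.66 ± 0.56 (SE; limma adjusted p = 0.000617).

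Cd5l, secreted by tissue macrophages, fell by 3.99 in the heart, from controls at 10.43, 8.58 and 10.501 to allografts at 5.55, 6.98 and 5.01. In the liver it stayed among high levels, 15.78, 15.59 and 15.59 in allografts and 13.59, 15.11 and 15.17 in controls. Cd163 and Mrc1, scavenger and mannose receptors of resident macrophages, differed by -2.91 and -3.66, Cd163 falling in both organs (-4.46 and -1.55), and Vsig4 by -4.26, a call lost with the slide block (adjusted p = 0.0663, limma). F13a1, the coagulation factor XIII subunit made by macrophages, measured 9.88, 10.14 and 9.66 in cardiac allografts and 13.49, 13.38 and 13.54 in controls, and 8.46, 8.08 and 8.49 in hepatic allografts and 6.42, 7.20 and 7.40 in controls. It fell in one organ and rose in the other, by -3.58 and 1.34. Fcrls, a receptor of macrophages and microglia, fell by 4.65 in the heart alone.

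Markers of hepatocytes and cholangiocytes also fell in the heart. Of 13 tested hepatocyte markers, 6 fell and 2 rose in the heart while 0 fell or rose in the liver, and 5 organ differences were called below 0 and 1 above 0, counts that became 2 and 3 with 75th percentile scaling. Of 5 tested cholangiocyte markers, 5 fell in the heart and 0 in the liver, and 4 organ differences were called, all below 0, a count that was 2 without cardiac control 3 and 1 with the slide block. Control heart 2 was the lowest control for each: Cd5l at 8.58, Ahsg, a hepatocyte secretory protein, at 9.22 against 12.07 and 12.66, and Krt19, a biliary keratin, at 7.98 against 10.05 and 10.22. The part of these markers in the fall of Cd5l was not tested.

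Of 19 monocyte and macrophage markers, 6 rose in the heart and 12 in the liver. The organ difference was called below 0 for 5 (26.3%, against 12.9% of all genes) and above 0 for 0. The count below 0 was 2 without cardiac control 3, the lowest with 1 array left out, and 3 with the slide block. It was thus not firmly above the share of all genes. Their summed log2 level was 17.24 to 17.84 in control hearts, 18.32 to 18.62 in cardiac allografts, 14.29 to 15.69 in control livers and 16.81 to 17.15 in hepatic allografts. Neutrophil markers summed to 15.14 to 15.82 in control hearts and 13.17 to 15.15 in cardiac allografts, against 11.83 to 13.36 and 12.25 to 12.85 in the liver. All 19 monocyte and macrophage markers were above background in control hearts, and the part of these control levels in the organ differences was not tested.

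**Figure D4:**
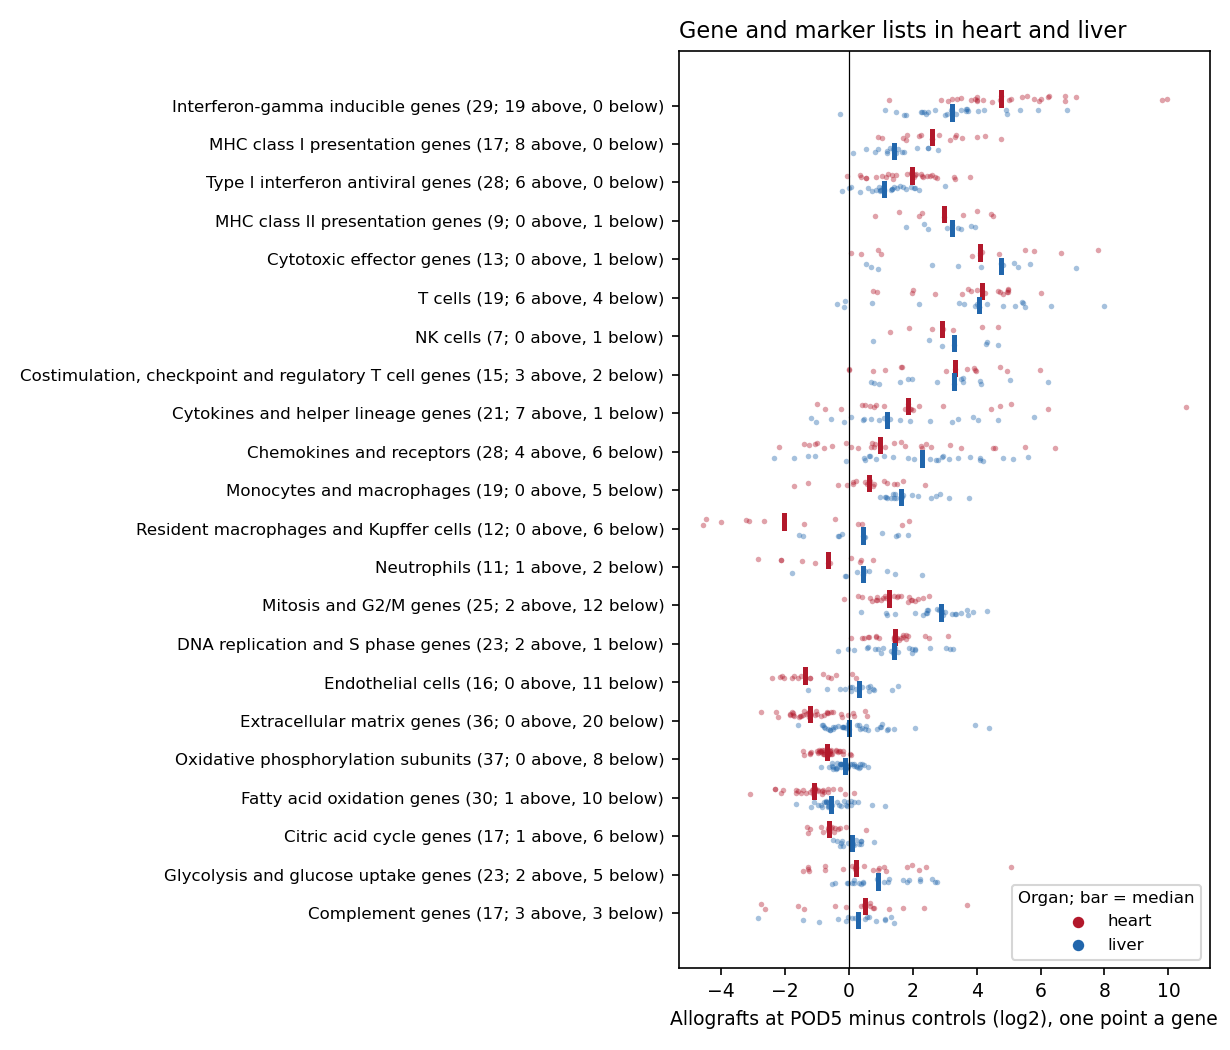
Change at POD5 (x axis, log2, allografts minus controls) of each tested gene of 22 lists in heart (red) and liver (blue), with bars at the list medians. Labels give the number of genes tested and the called organ differences above and below 0, from 19 above and 0 below for interferon-gamma inducible genes to 0 above and 20 below for extracellular matrix genes.

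Cell division genes rose in both organs, those of mitosis more in the liver. Of 25 mitosis and G2/M genes, 24 rose in hepatic and 14 in cardiac allografts, with medians of 2.89 and 1.25, and 12 organ differences were called below 0 and 2 above 0. Without cardiac control 3 the count below 0 was 6, and without cardiac control 1, or with the slide block, it was 7. Of 23 DNA replication and S phase genes, 17 rose in the liver and 16 in the heart, with medians of 1.41 and 1.46. Called organ differences were 2 above 0 (8.7%, against 11.4% of all genes) and 1 below 0 (4.35%, against 12.9%). Mki67, the proliferation marker Ki-67, measured 11.01, 11.24 and 11.67 in hepatic allografts and 8.27, 8.69 and 8.48 in controls. Cardiac allografts measured 11.71, 10.38 and 12.11 and cardiac controls 11.22, 10.52 and 11.25, so the cardiac groups overlapped and 3 of the 4 groups shared 1 level. The organ difference was -2.42 (limma adjusted p = 0.0112). Cenpf, a kinetochore protein, rose by 2.93 in the liver against -0.14 in the heart, and Tpx2, a spindle assembly factor, by 3.70 against 1.02. Bub1, a spindle checkpoint kinase, was 1 of the 2 above 0, at 1.79, with control livers (9.36 to 10.21) above control hearts (7.91 to 8.08). The summed log2 level of the mitosis list was 13.29 to 14.19 in control hearts and 12.06 to 12.50 in control livers.

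Endothelial and matrix genes fell in the heart and mostly did not in the liver. Of 16 endothelial markers, 11 fell in cardiac allografts, with a median of -1.36, while 2 rose and 1 fell in hepatic allografts, with a median of 0.32. The organ difference was called for 11, all below 0, and for 7 to 11 with 1 array left out, the fewest without cardiac control 1, and for 6 with the slide block. Cdh5, the cadherin of endothelial junctions, measured 9.79, 8.90 and 9.67 in cardiac allografts and 11.35, 11.13 and 11.18 in controls, against 9.64, 9.89 and 10.78 in hepatic allografts and 9.17, 9.55 and 9.23 in controls. The difference was -2.55 ± 0.43 (SE; limma adjusted p = 0.00329). Tek, the angiopoietin receptor, differed by -2.69. Fabp4, a lipid carrier of capillary endothelium, fell by 1.70 in the heart and rose by 1.53 in the liver. Ly6c1, found on endothelium and T cells, rose by 5.36 in the liver, where 1 of 3 control arrays was not well above background, against 0.74 in the heart.

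Of 36 extracellular matrix genes, 23 fell and 0 rose in the heart, while 8 rose and 2 fell in the liver, and 20 organ differences were called, all below 0. With 75th percentile scaling 15 were called and with the slide block 11. Mmp3, a stromelysin, measured 7.96, 8.39 and 8.36 in hepatic allografts and 1.19, 5.83 and 5.79 in controls, the lowest of which was not well above background, and 10.14, 10.41 and 10.61 in cardiac allografts and 12.07, 12.07 and 12.50 in controls. Its cardiac change was not called (limma adjusted p = 0.135), and its organ difference was -5.79 ± 1.30 (SE; limma adjusted p = 0.0107). Thbs1, thrombospondin 1, was not well above background in control livers. Its fitted organ difference was -4.61 (limma adjusted p = 0.00341), and with those livers at their bound it was -2.36 or lower, a value not tested. Spp1, osteopontin, fell by 2.22 in the heart against 1.20 in the liver, the latter not called.

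Fatty acid oxidation and oxidative phosphorylation genes fell mainly in the heart, while of 23 glycolysis and glucose uptake genes 7 rose and 3 fell in the heart and 10 rose in the liver. Of 30 fatty acid oxidation genes, 25 fell in cardiac and 5 in hepatic allografts, with medians of -1.1 and -0.56. The organ difference was called below 0 for 10 and above 0 for 1, with 4 below 0 under 75th percentile scaling, 2 with the slide block, 5 without cardiac allograft 3 or cardiac control 2 or 3, and 6 without hepatic allograft 1. Cd36, the fatty acid transporter, measured 11.70, 11.58 and 11.49 in cardiac allografts and 13.48, 14.23 and 13.97 in controls. Hepatic allografts measured 9.74, 9.92 and 10.09 and controls 9.15, 9.26 and 9.14, a small rise against a large fall. The organ difference was -3.03 ± 0.29 (SE; limma adjusted p = 0.000201). Lpl, which frees fatty acids from lipoproteins, differed by -3.17. Cpt1a, the liver form of the carnitine transferase, was the 1 gene above 0, falling by 1.1 in the liver, with a call lost without cardiac allograft 3, cardiac control 1 or 2, hepatic allograft 1 or 3, or hepatic control 3. Of 37 oxidative phosphorylation subunits, 23 fell in the heart and 0 in the liver, but the 8 called organ differences became 0 with 75th percentile scaling, with the slide block, or without cardiac control 2. Cardiomyocyte markers could be compared for 9 of 22 genes, of which 2 fell in the heart, where 20.6% of all genes fell.

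Complement genes parted by protein. C4b, in the classical pathway, measured 12.04, 12.62 and 12.03 in hepatic allografts and 15.56, 13.46 and 16.21 in controls, and was 1.26 higher in cardiac allografts than controls (limma adjusted p = 0.0855), an organ difference of 4.11 ± 0.77 (SE; limma adjusted p = 0.00488). Cfb, factor B of the alternative pathway, rose by 3.71 in the heart against 0.20 in the liver. Adh1, an alcohol dehydrogenase abundant in the liver, fell by 5.10 in the heart, from 10.62, 10.09 and 10.23 to 4.51, 5.15 and 5.98, while hepatic allografts (16.24 to 16.93) overlapped their controls (16.58 to 16.81). The hepatocyte markers named above fell in the same hearts. The summed cholangiocyte level was 15.32 to 15.99 in control hearts and 13.37 to 13.69 in cardiac allografts. Nearly all of that sum was Spp1, which is also on the matrix list. Spp1 alone measured 15.87, 15.30 and 15.92 in control hearts and 13.44, 13.34 and 13.65 in cardiac allografts. The part of the hepatocyte and cholangiocyte markers in the fall of Adh1 was not tested. Socs3, a feedback inhibitor of cytokine signalling, rose by 2.05 in the heart against -0.09 in the liver.

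Some of the largest organ differences lay outside these lists. Dnase1l3, a DNase secreted by macrophages and dendritic cells, measured 10.14, 9.31 and 10.17 in cardiac allografts and 2.21, 3.03 and 2.29 in controls, of which 1 was well above background. The hepatic groups, at 10.37 to 10.95 and 9.45 to 10.19, were already at the level of the allografted hearts, and the organ difference was 6.6 ± 0.44 (SE; limma adjusted p = 2.28e-05). Apol7c, an apolipoprotein L family member, rose by 4.74 in the heart against 0.04 in the liver, and Unc93a by 3.89 against -0.29. Pnpla5, a patatin-like lipase, rose in both, by 6.73 and 2.21. In the liver alone, Hsd3b4, a steroid dehydrogenase family member, fell by 3.61, from controls at 13.24, 13.49 and 13.04 to 7.75, 10.59 and 10.59.

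Genes that rose in one organ and fell in the other, each by its own call and with a called organ difference, numbered 79 (0.615%) for heart up and liver down and 108 (0.84%) for the reverse. Tspan33, a tetraspanin, measured 9.23, 9.27 and 9.23 in cardiac allografts and 7.36, 7.03 and 7.50 in controls, and 10.39, 10.31 and 10.21 in hepatic allografts and 12.26, 11.96 and 11.51 in controls. Organs that began far apart drew closer, with an organ difference of 3.55 ± 0.30 (SE; limma adjusted p = 0.000116). Cyp4a10, a fatty acid hydroxylase of the liver, rose by 2.44 in the heart and fell by 1.87 in the liver, and Mcm10, a replication factor, rose by 2.37 and fell by 1.49.

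In the reverse direction, Ddit4, a stress-induced inhibitor of mTORC1, measured 12.37, 12.44 and 12.24 in cardiac allografts and 14.37, 14.49 and 14.96 in controls, and 12.72, 11.72 and 13.58 in hepatic allografts and 11.09, 11.04 and 10.58 in controls. The groups did not overlap in either organ, and the organ difference was -4.03 ± 0.53 (SE; limma adjusted p = 0.000971). Its relative Ddit4l differed by -4.08 and was called below 0 on 3 of 3 probes. Thrsp, a regulator of fat synthesis, fell by 2.72 in the heart and rose by 1.62 in the liver. Of the genes called in the same direction with an organ difference held within -1 to 1 by its 95% interval, 152 rose in both organs and 118 fell in both. Lrp3, a lipoprotein receptor family member, fell by 1.5 in the heart and by 1.59 in the liver, and Ctsf, cathepsin F, fell by 1.40 and 1.18.

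**Figure D5:**
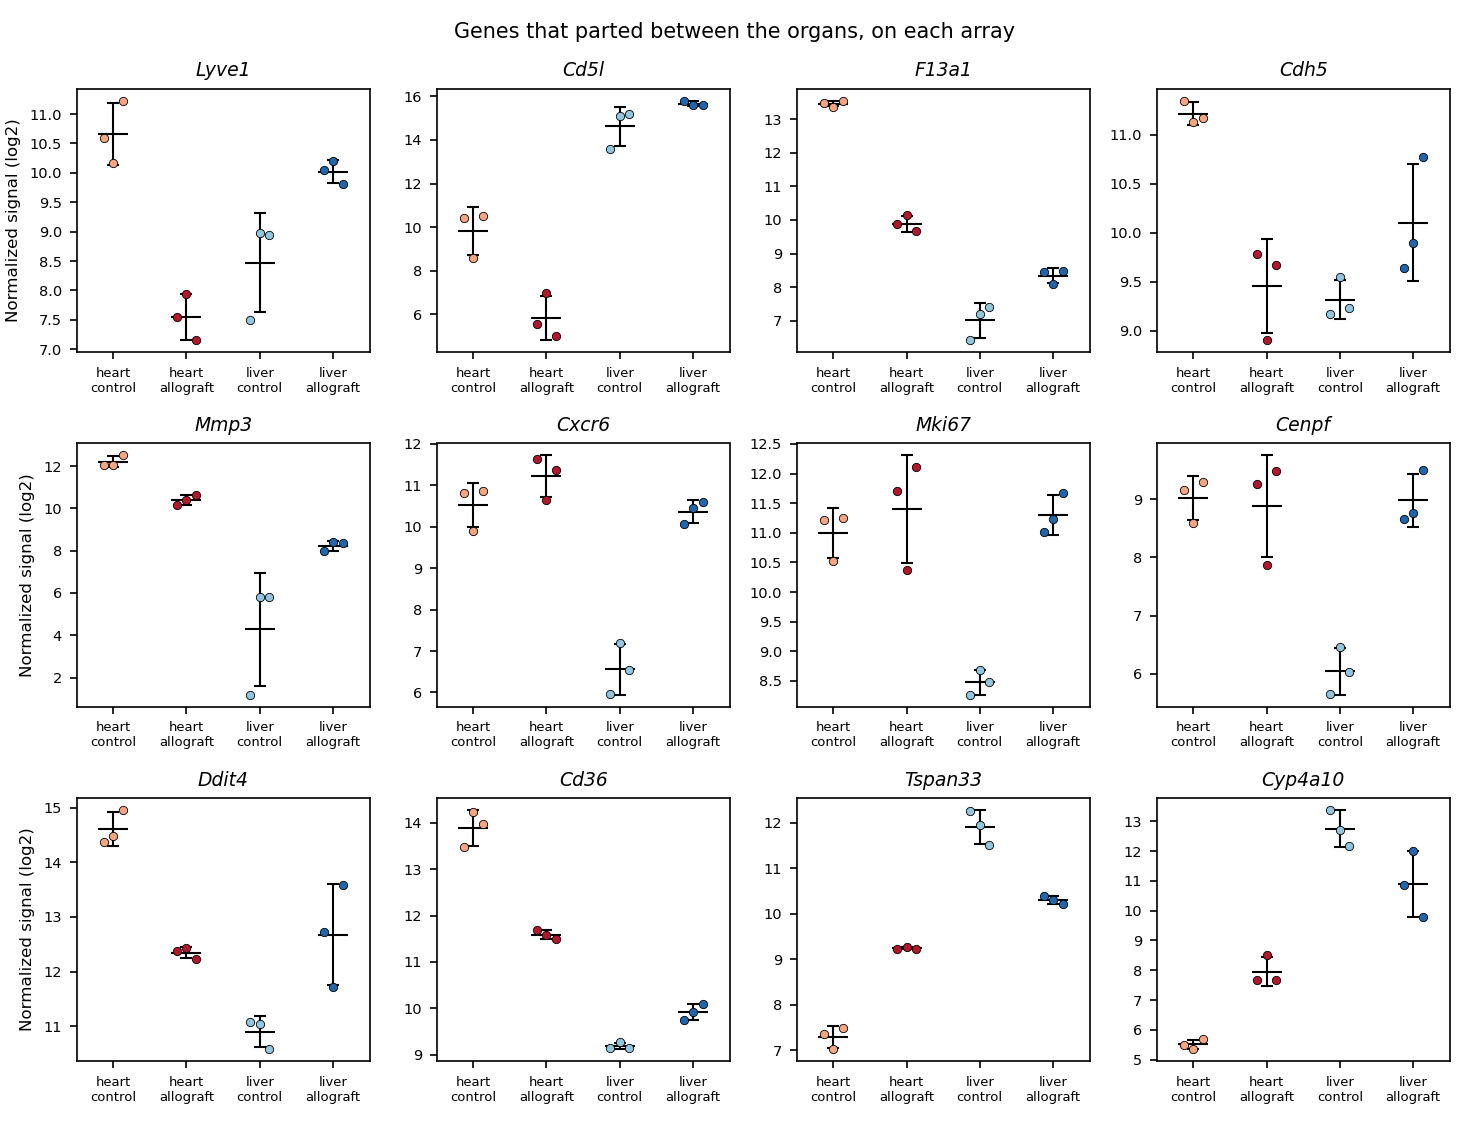
Normalized signal (y axis, log2, own scale in each panel) of 12 genes on each of the 12 arrays, with the mean and SD of each group of 3. Lyve1, F13a1, Ddit4 and Cd36 fell in the heart and rose in the liver, Tspan33 and Cyp4a10 did the reverse, and for Mki67, Cxcr6 and Cenpf the control livers are the 1 group that stands apart.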

How the data were processed

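Agilent single-colour arrays measured RNA from mouse hearts and livers, 1 array per sample. The authors scanned them and extracted spots with Agilent Feature Extraction 10.5.1.1, and the deposited values used here are processed signal intensity per spot. Outlier spots were left out, spots of a probe were averaged, and log2 values of the deposited intensity were quantile normalized over the 12 arrays. Probes were named through RefSeq accessions (GRCm38.p6, names only), which gave a gene for 26690 of 41174 probes (64.8%).

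A linear model with 4 groups of 3 arrays was fitted with limma 3.58.1 (R 4.3.3, data.table version 1.17.8), and the contrasts for heart, liver and their difference were adjusted by Benjamini-Hochberg over 22788 probes at 0.05. The fit was tested on simulated data first. Python 3.11.15 (pandas 2.3.3, matplotlib 3.10.9) searched promoters and drew the plots. A gene was read from its brightest probe. A group with 0 of 3 arrays well above background has only a bound, taken from the lowest signal of probes well above background. Precision is limited by the number of arrays, and p-values measure the spread between these samples, which may be technical in part, since nothing used here says how animals map to arrays.

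Members and gene lists were chosen with earlier results of these data known. Named genes were the 12 largest organ differences on each side, 6 of each opposite and each shared direction, and up to 3 called members per list, from which those described were selected. Ubd, Acod1, Gbp2, Gbp7, Gzmb, H2-K1, H2-D1, Tbx21, Il18r1, Lag3, Pdcd1, Bub1, Cpt1a, Cd3e, Thy1, Cd8a, Cd163, Mrc1, Ccr2 and Mki67 were added after their values were seen. Alternatives covered normalization, background correction, filters, test form, thresholds, slide, replicate number and each array left out. The 3 hepatic POD8 arrays entered 2 alternatives (normalization over all 15 arrays, and all 15 arrays in 1 fit) and are given as untested values in the closing section. A few genes are not reported here.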

Additional observations from a re-analysis of the deposited data

Results flagged for a closer look

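The organ difference itself, tested as an interaction in limma, was called for 5178 probes, and 330 probes were called in opposite directions in the 2 organs. Of the genes that rose in the heart and fell in the liver, the organ difference was 4.31 for Cyp4a10, 3.55 for Tspan33, 3.36 for Atp12a, 3.51 for Mc1r, 3.86 for Mcm10 and 3.07 for Lmntd2. Of those that fell in the heart and rose in the liver, it was -4.39 for Pls1, -4.03 for Ddit4, -4.08 for Ddit4l, -4.35 for Thrsp, -3.24 for Nap1l3 and -4.66 for Lyve1.

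Hepatic allografts at POD8, which are not part of the comparison and were read against the same 3 control livers, also lay above every control for 4 of these 6 genes that rose in the liver at POD5. The POD8 mean was higher by 1.3 for Pls1, 0.99 for Ddit4, 1.16 for Ddit4l and 1.38 for Lyve1 (log2). For the other 2, Thrsp (0.56) and Nap1l3 (1.33), POD8 arrays overlapped the controls. These differences were not tested.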

How the results depend on the processing

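No called result reversed, and the uncalled organ difference of Gzmb (0.69) was -0.19 with the standardized median difference. Counts of called probes were 5178 for the organ difference, 8920 for the heart, 4474 for the liver and 330 in opposite directions. With an adjusted level of 0.01 they were 1671, 5372, 2172 and 57. A log2 difference of at least 1 gave 5694 in the heart and 128 in opposite directions. With slide as a random block (each slide held 1 scan, so a scan block is the same fit) they were 2975, 5257, 2610 and 85. One probe per gene gave 3227, 5423, 2624 and 195, with fewer features tested. The methods' t-test form with Bonferroni adjustment, on the unmoderated variance of the same fit, gave 36, 311, 111 and 0. The standardized median difference with Benjamini-Hochberg gave 212, 485, 1094 and 7, and with Bonferroni 62, 152, 305 and 0. The cause was not tested.

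Leaving out 1 array gave 2954 to 5559 for the organ difference, 6559 to 10356 for the heart, 2789 to 5581 for the liver and 166 to 514 in opposite directions. The organ difference fell to 2954 without cardiac control 3 and 3267 without cardiac control 1, and the liver to 2789 without hepatic allograft 1. Opposite calls were 166 without cardiac control 3, 174 without hepatic allograft 1, 190 without cardiac control 1, 208 without cardiac allograft 3 and 514 without hepatic control 3.

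Replicate numbers did not pair the samples (same-number correlations of deviations from -0.27 to 0.24), and a replicate block gave 4517, 8496, 4104 and 294. Dim probes and the 3 arrays per group limit what could be called: half-widths of 95% intervals had a median of 0.83 over genes.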
